A study of Homo sapiens with 12 samples.

Results

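The mitotic genes are 42 genes whose products carry a cell through mitosis and cytokinesis, picked by gene name from the 58735 genes of the deposited tables. By role, 9 act in mitotic entry (FOXM1, CDK1, CCNA2, CCNB1, CCNB2, CDC25B, CDC25C, PLK1 and AURKA) and 6 in the spindle checkpoint and the anaphase-promoting complex, APC/C (BUB1, BUB1B, TTK, CDC20, UBE2C and PTTG1). A further 8 belong to the kinetochore and the chromosomal passenger complex (CENPA, CENPE, CENPF, NUF2, NDC80, SGO1, AURKB and BIRC5). The spindle group has 10 members (KIF11, KIF18A, KIF2C, KIF4A, TPX2, DLGAP5, HMMR, NUSAP1, ASPM and CKAP2) and the cytokinesis group 7 (PRC1, KIF20A, KIF20B, KIF23, KIF14, ANLN and ECT2). TOP2A and MKI67, the remaining 2, act on mitotic chromosomes. All 42 passed the filter on low counts in every comparison.

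Total RNA of HLE-B3 cells, a human lens epithelial line immortalised with an adenovirus 12-SV40 hybrid, was sequenced in 12 libraries. WT cells and cells labelled Atg7KO, from clones picked after CRISPR/Cas9 editing of the autophagy gene ATG7 and screened for loss of its protein by western blot, were each collected untreated (0 h) and after 12 h with 200 μM H2O2. Each of these 4 groups has 3 libraries, labelled biological replicates, and all cells were grown in DMEM/F12 with 10% fetal bovine serum. The labels do not say which Atg7KO clone was used, or whether several were. Loss of ATG7 and other differences between the picked cells and WT therefore cannot be told apart. Untreated cells were collected at 0 h only, so H2O2 and 12 h more in culture cannot be told apart either. Libraries held between 15602183 and 17659496 reads on genes.

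Entry into mitosis is driven by CDK1 bound to B-type cyclins, with CDC25 phosphatases and the kinases PLK1 and AURKA as activators. Exit follows when the APC/C, with CDC20 and the ubiquitin-conjugating enzyme UBE2C, marks cyclin B and the securin PTTG1 for destruction, which the spindle checkpoint delays until all kinetochores are attached. Many of these genes are transcribed in G2 and M phase under NF-Y, which binds CCAAT boxes in their promoters, and under B-MYB and FOXM1 with the MuvB core, which binds CHR elements. The DREAM complex, which holds the same core, represses them through CHR elements.

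ATG7 messenger RNA was not reduced in the libraries labelled Atg7KO. Levels are given as FPKM, fragments scaled to gene length and by a factor for each library, as deposited. ATG7 was at 2.81, 2.64 and 2.21 FPKM in untreated WT and 3.78, 3.42 and 3.43 in untreated Atg7KO, and at 1.99, 1.91 and 1.97 and 2.11, 2.12 and 2.35 after H2O2. At both times every Atg7KO library was above every WT library. With edgeR, the log2 fold change of ATG7 in Atg7KO against WT was 0.47 (SE 0.121, adjusted p = 0.0348) untreated and 0.15 (SE 0.0902, adjusted p = 0.135) with H2O2, neither under the threshold of 0.01. ATG7 differed by -0.39 (SE 0.0949, adjusted p = 3.72e-04) between treated and untreated WT and by -0.70 (SE 0.0985, adjusted p = 0.00149) in Atg7KO, and these responses differed by -0.31 (SE 0.142, adjusted p = 0.113). An edit that removes the protein and leaves the messenger RNA in place cannot be seen in these counts, and the genotype is used as labelled.

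Markers of lens epithelium were mostly low. Of 17 such genes, 5 had a mean above 1 FPKM in at least 1 group, with GJA1 the most abundant at 26.1 FPKM in untreated WT. SOX1 and SOX2 were at 0 in all libraries. FOXE3, CDH1 and CRYAA did not pass 0.0893, 0.0841 and 0.0357 FPKM. PAX6 averaged 1.27 FPKM in untreated WT. The summed level of the 17 was 31.1, 30.2 and 31.2 FPKM in untreated WT, 49.5, 50.3 and 52.9 in treated WT, 26.6, 28.2 and 27.2 in untreated Atg7KO and 55.5, 54.1 and 57.5 in treated Atg7KO. Most of this sum was GJA1, whose mean went from 26.1 to 43.5 FPKM in WT and from 23.9 to 50.5 in Atg7KO. MAB21L1 and CRYAB were also higher after H2O2 in both genotypes. PAX6 was lower in both, at 0.776 and 0.560 FPKM after 1.27 and 1.02. SIX3 was lower in treated WT (2.46 after 3.06) and higher in treated Atg7KO (2.45 after 1.98). Among fibroblast and mesenchyme genes 8 of 10 were above 1 FPKM, led by COL1A1 at 626 FPKM. Their sum was 1125, 1138 and 1123 FPKM in untreated WT and 679, 649 and 664 in treated WT. In Atg7KO it was 813, 888 and 880 untreated and 545, 559 and 559 treated, so it was lower in the treated libraries. Most of this sum was COL1A1, VIM and FN1, and not every gene of the list fell. FN1 was nearly level in Atg7KO (92.3 after 97.9). ACTA2 was higher after H2O2 in WT (3.55 after 1.56) and in Atg7KO (2.48 after 1.06). LUM averaged 0.168 FPKM in untreated WT and 9.52 in untreated Atg7KO. Lens fibre genes (1 of 11 above 1 FPKM, CRYGS), retinal pigment epithelium genes (1 of 8, MITF) and endothelium and blood genes (2 of 9, CD14 and LYZ, with HBB at 0) were low throughout. The part of any of these in the results for mitotic genes was not tested.

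The library of untreated Atg7KO replicate 1 stood apart from its group. Its mean correlation with the other 2 untreated Atg7KO libraries across genes was 0.971, against 0.980 for each of these and 0.989 for each library of the other groups. Its deviation followed gene length. Measured in log2 against the mean of its 2 partners, the median of the shortest 14 members was 0.46 higher and that of the longest 14 was at -0.32. All tested genes in the same length ranges deviated by 0.30 and -0.18. In untreated WT the medians of the members' deviations stayed between -0.11 and 0.09 in every library and length class, and in treated Atg7KO between -0.06 and 0.06. In treated WT the members moved together whatever their length, with medians of -0.20, -0.14 and -0.17 from the shortest to the longest class in replicate 2 and of 0.19, 0.14 and 0.15 in replicate 3, while all tested genes stayed between -0.01 and 0.01. MKI67, the longest member at 12807 bases, read 15.7, 41.3 and 40.2 FPKM in the untreated Atg7KO replicates, and PTTG1, of 2013 bases, read 135, 64.3 and 67.3. Replicate 1 was the lowest for MKI67 and the highest for PTTG1, and the counts, medians and several values that use it are also given without it. Fits without it hold 2 untreated Atg7KO libraries, and it was singled out after its values were seen. Their adjusted p values are therefore not to be read like those of the full fits. The length classes were chosen after the values were seen.

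**Figure D1:**
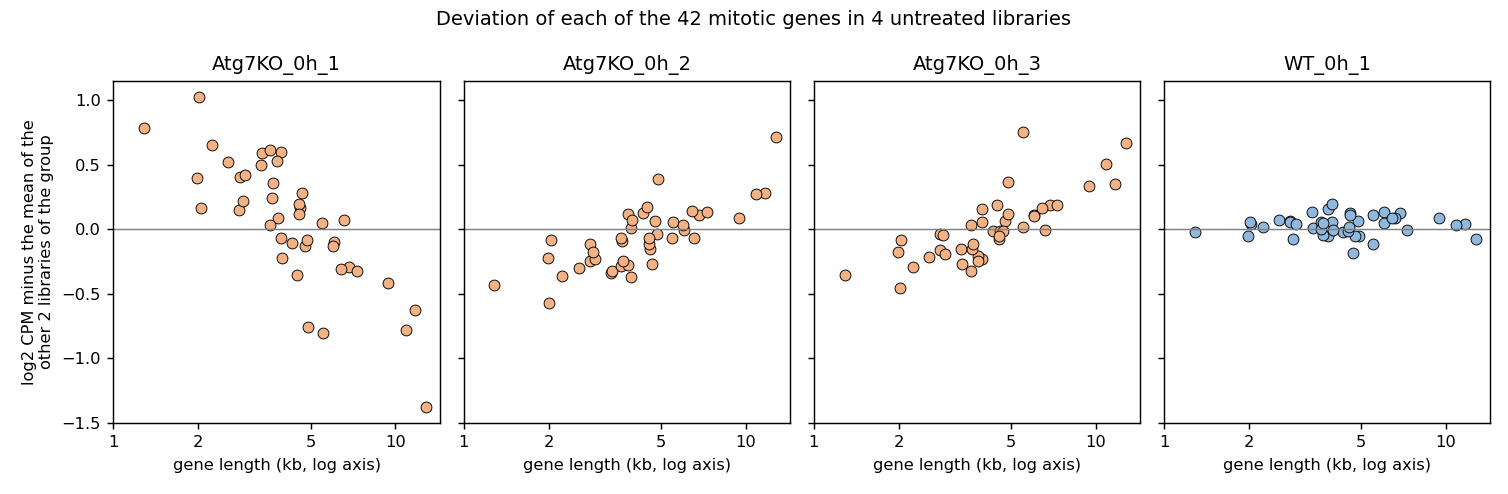
Deviation of each mitotic gene, in log2 CPM (vertical axis, library-scaled counts), from the mean of the other 2 libraries of its group, against gene length in kilobases on a log axis, in the untreated Atg7KO libraries and in untreated WT replicate 1. Each point is 1 gene. In Atg7KO replicate 1 the deviation falls with length, from above 0 for the shortest 14 members down to MKI67, with points on both sides of 0 among the longer ones, and the 2 partner libraries mirror this because replicate 1 is part of their reference.

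In untreated WT cells the 42 members had a median level of 38.4 FPKM, and 37 were above 10 FPKM. TPX2 (117 FPKM), TOP2A (113) and UBE2C (106) were the most abundant. SGO1 (4.04) and PRC1 (0.419) were the lowest. Exons of other genes cover 58.4% of the exon bases of PRC1, from a gene on its own strand and from PRC1-AS1 on the opposite strand, and 62.2% of those of NUSAP1, from a gene on the same strand. Genes on the opposite strand cover 17.7% for SGO1, 15.9% for FOXM1 and 12.5% for PLK1, and BUB1B-PAK6 on the same strand covers 10.2% of BUB1B. The labels state neither the strand setting of the counting nor how reads on shared exons were treated, so whether these members hold reads of other genes or lack some of their own cannot be told. For 25 members no exon base is shared with another gene. The members lie on 18 chromosomes, with at most 6 on any of them.

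Reads on the 42 genes together came to 8347 ± 229 CPM, counts scaled to the library total, in untreated WT (SD, n = 3) and 3036 ± 206 in treated WT. In Atg7KO they came to 7666 ± 229 untreated and 2168 ± 25.1 treated. The treated libraries of each genotype were far below the untreated ones, and treated Atg7KO lay below treated WT in all libraries. In bulk RNA, fewer cells in mitosis and less of these RNAs per cell cannot be told apart.

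**Figure D2:**
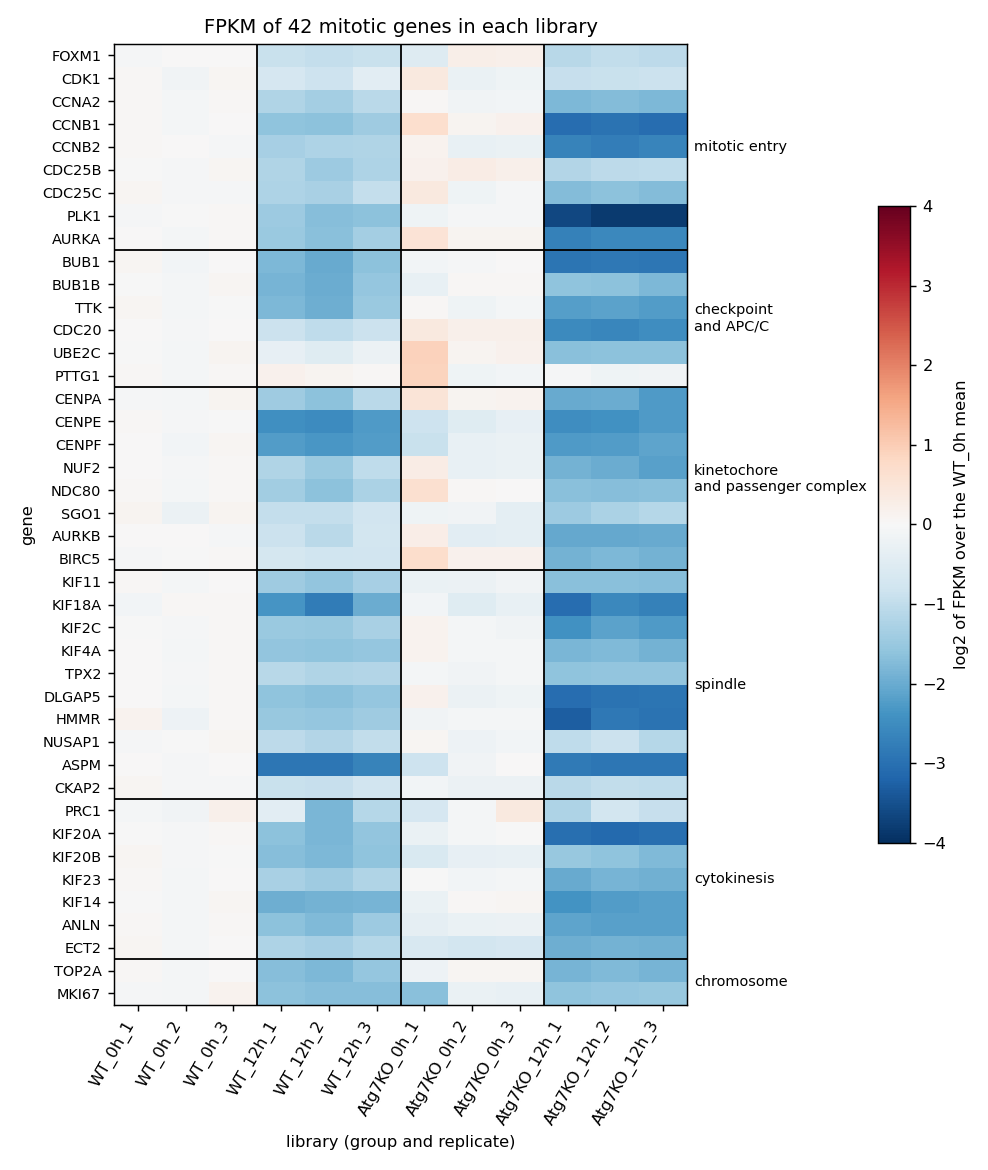
Level of the 42 mitotic genes, grouped by role, in each of the 12 libraries, as log2 of FPKM over the mean of the 3 untreated WT libraries (colour scale, blue lower and red higher). Treated libraries are blue for nearly every gene, with PLK1 in treated Atg7KO the darkest, and PTTG1 is near 0 outside untreated Atg7KO replicate 1.

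The comparison of treated with untreated WT cells asks what 12 h of H2O2 did to these genes in cells with the unedited autophagy gene. Nearly the whole set fell: edgeR called 41 of 42 members lower at adjusted p under 0.01, against 30.1% of the 15913 genes tested. It called 0 higher, against 30.9% of all genes. At an unadjusted p under 0.05, 1 member was higher, PTTG1, when 11347 of all 15913 genes passed in either direction. DESeq2, limma on FPKM plus 1 and limma on FPKM plus 0.1 called 0 members higher, against 20.2%, 28.9% and 28.9% of all genes. The median log2 fold change of the members was -1.43, and that of all tested genes -0.01. The further thresholds of the study, a log2 fold change beyond 1 and FPKM above 1, were set there on DESeq2 results. Applied here to edgeR calls, with FPKM taken as the mean of either group, they left 32 members lower, against 5.24% of all genes. By role, the calls were 9 of 9 for mitotic entry, 5 of 6 for the checkpoint and APC/C, 8 of 8 for the kinetochore and passenger complex, 10 of 10 for the spindle, 7 of 7 for cytokinesis and both chromosome genes.

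In the mitotic entry group, PLK1, the kinase that promotes entry and later steps of mitosis, had 27.4, 27.8 and 28.97 FPKM in untreated WT and 10.3, 8.64 and 9.06 in treated WT. Treated libraries all lay below untreated ones, with a log2 fold change of -1.59 (SE 0.0577, adjusted p = 2.97e-28). CCNB1, cyclin B1, went from 86.2, 78.9 and 85.1 FPKM to 27.6, 26.9 and 30.95, a log2 fold change of -1.55 (SE 0.0522, adjusted p = 1.74e-29). AURKA, the centrosomal kinase that activates PLK1, went from 51.5, 47.8 and 52.5 to 18.2, 15.7 and 19.5 FPKM, a log2 fold change of -1.51 (SE 0.0597, adjusted p = 1.86e-23). In both genes the groups did not overlap. FOXM1, a transcription factor for many of the others, moved from 21.7, 22.4 and 22.7 to 11.98, 11.4 and 12.1 FPKM, with a log2 fold change of -0.92 (SE 0.0534, adjusted p = 2.61e-20) and no overlap. The smallest change of the group was that of CDK1, the kinase partner of cyclin B, which had 37.4, 33.1 and 38.8 FPKM untreated and 22.8, 20.4 and 27.1 treated. Its groups did not overlap, and its log2 fold change was -0.64 (SE 0.116, adjusted p = 0.00305). Without untreated WT replicate 1 the adjusted p of CDK1 was 0.0139 and without treated WT replicate 1 it was 0.0103, so the call rests on these libraries.

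The checkpoint and APC/C group held large and small changes. BUB1, a kinase of the spindle checkpoint, fell from 34.1, 29.8 and 32.3 FPKM to 9.21, 7.89 and 10.4, a log2 fold change of -1.81 (SE 0.0803, adjusted p = 7.26e-11). CDC20, the activator of the APC/C that the checkpoint inhibits, went from 93.6, 89.4 and 92.2 to 50.9, 45.3 and 50.4 FPKM, a log2 fold change of -0.91 (SE 0.0493, adjusted p = 1.68e-21). For both, every treated library was below every untreated one. UBE2C, the ubiquitin-conjugating enzyme of the APC/C, had 105, 99.3 and 113 FPKM untreated and 84.4, 76.01 and 90.3 treated. Its groups came close without overlap, and its log2 fold change of -0.34 (SE 0.0557, adjusted p = 1.24e-06) was the smallest called. With a correction for gene length it was -0.56 (adjusted p = 2.32e-12). With all 12 libraries in the same fit it was not called (adjusted p = 0.106). PTTG1, the securin that holds back separase, was the only member not called. It had 73.9, 68.4 and 74.2 FPKM untreated and 81.4, 77.7 and 75.3 treated, and a log2 fold change of 0.11 (SE 0.0475, adjusted p = 0.0370). The treated libraries of PTTG1 were slightly above the untreated ones, and with the length correction its value was -0.05 (adjusted p = 0.347).

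Among kinetochore and passenger genes, CENPF, a large protein of the outer kinetochore, fell from 40.5, 36.8 and 42.2 to 8.54, 7.85 and 8.55 FPKM, a log2 fold change of -2.26 (SE 0.0496, adjusted p = 3.99e-36). AURKB and BIRC5, the kinase and the survivin subunit of the passenger complex, changed less. AURKB had 41.5, 41.7 and 40.1 FPKM untreated and 22.8, 19.5 and 24.6 treated, with a log2 fold change of -0.88 (SE 0.0622, adjusted p = 3.16e-16). BIRC5 had 45.03, 45.7 and 47.9 and 28.4, 26.4 and 26.9 FPKM, with a log2 fold change of -0.77 (SE 0.0480, adjusted p = 4.22e-19). None of the 3 had overlapping groups. The motor CENPE, which moves chromosomes to the spindle equator, had a log2 fold change of -2.41, the lowest of this role.

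ASPM, a spindle pole protein, had the lowest log2 fold change of all members in WT. It went from 22.97, 21.8 and 23.04 FPKM to 3.02, 3.05 and 3.57, 7.05-fold lower, with a log2 fold change of -2.82 (SE 0.0562, adjusted p = 9.39e-39). KIF11, the motor that pushes the spindle poles apart, went from 39.98, 36.8 and 39.5 to 14.4, 13.1 and 15.5 FPKM, a log2 fold change of -1.44 (SE 0.0536, adjusted p = 4.08e-27). Both spindle genes had groups far apart. KIF20A, a motor of the central spindle in cytokinesis, fell from 45.4, 44.4 and 46.5 to 14.7, 12.9 and 15.3 FPKM, with a log2 fold change of -1.67 (SE 0.0542, adjusted p = 3.37e-30). ECT2, which activates the small GTPase RhoA at the cleavage furrow, fell from 83.4, 74.6 and 79.8 to 33.6, 31.6 and 35.6 FPKM, with a log2 fold change of -1.24 (SE 0.0468, adjusted p = 3.96e-27). PRC1, which bundles the microtubules of the central spindle, was called with -1.01 (SE 0.304, adjusted p = 0.00300), at levels under 1 FPKM. Its adjusted p was 0.0174 without untreated WT replicate 3 and 0.0347 without treated WT replicate 2, DESeq2 gave 0.0296, all 12 libraries in the same fit 0.0227, and limma on FPKM plus 1 and plus 0.1 gave 0.0118 and 0.0146, so the call of PRC1 does not hold in these settings.

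The 2 chromosome genes fell alike in WT. TOP2A, the topoisomerase that untangles sister chromatids, went from 118, 108 and 114 FPKM to 34.7, 32.8 and 38.97, a log2 fold change of -1.68 (SE 0.0502, adjusted p = 1.62e-24). MKI67, the Ki-67 protein that coats mitotic chromosomes and marks cycling cells, went from 47.8, 46.6 and 54.4 to 15.9, 15.3 and 15.1 FPKM, a log2 fold change of -1.69 (SE 0.0478, adjusted p = 9.34e-30). For both genes all treated libraries were below all untreated ones. CDC25B, a phosphatase that activates CDK1, had 37.6, 36.5 and 39.98 FPKM untreated and 16.6, 14.02 and 16.2 treated, and a log2 fold change of -1.29 (SE 0.0549, adjusted p = 6.43e-25).

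Treated against untreated Atg7KO cells put the same question to the edited cells. The set fell here too: edgeR called 39 of 42 members lower, against 12.4% of the 15475 genes tested. It called 0 higher, against 13.6% of all genes. At an unadjusted p under 0.05 no member was higher either, as all 42 log2 fold changes were below 0. Of all 15475 genes 7952 passed in either direction. DESeq2, limma on FPKM plus 1 and limma on FPKM plus 0.1 called 0 members higher, against 14.5%, 13.8% and 13.3% of all genes. The median of the members was -1.87 and that of all tested genes -0.03. Under the thresholds of the study 36 members were lower, against 5.11% of all genes. By role the calls were 9 of 9, 5 of 6, 8 of 8, 10 of 10, 6 of 7 and 1 of 2, in the order given for WT, and the members not called were PTTG1, PRC1 and MKI67. Leaving out untreated Atg7KO replicate 1 gave 41 members called lower, against 28.6% of the 16002 genes then tested, and 0 higher, against 29.8%, with a median of -1.82 for the members. All roles were then called in full except the checkpoint and APC/C, with 5 of 6.

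PLK1 had the lowest log2 fold change of any member in any comparison. It stood at 24.97, 27.3 and 27.02 FPKM in untreated Atg7KO and at 2.26, 1.98 and 1.97 in treated Atg7KO, 12.8-fold lower, with a log2 fold change of -3.68 (SE 0.110, adjusted p = 4.93e-06). The 3 treated libraries lay close together at the bottom. CCNB1 went from 132, 90.5 and 93.4 FPKM to 10.1, 10.7 and 10.2, 10.2-fold lower, with a log2 fold change of -3.35 (SE 0.168, adjusted p = 2.87e-05). Untreated replicate 1 was the highest of its group for CCNB1, and without it the value was -3.17. AURKA went from 73.5, 54.4 and 54.97 to 7.78, 8.48 and 8.45 FPKM, a log2 fold change of -2.89 (SE 0.143, adjusted p = 2.81e-05). The phosphatase CDC25B moved from 42.4, 47.1 and 43.9 to 16.8, 18.3 and 18.96 FPKM, a log2 fold change of -1.31 (SE 0.0942, adjusted p = 8.50e-05).

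FOXM1 and CDK1 changed least in the entry group of Atg7KO. FOXM1 had 15.4, 26.2 and 25.7 FPKM untreated and 10.3, 11.2 and 10.7 treated, a log2 fold change of -1.07 (SE 0.206, adjusted p = 0.00578). CDK1 had 47.6, 30.3 and 32.1 and 19.3, 19.5 and 20.03 FPKM, a log2 fold change of -0.91 (SE 0.172, adjusted p = 0.00555). Neither gene had overlapping groups. The call of FOXM1 was lost without untreated Atg7KO replicate 2 (adjusted p = 0.0177) or 3 (0.0201) and without treated Atg7KO replicate 1 (0.0315), 2 (0.0274) or 3 (0.0300). With limma on FPKM plus 1 it was lost as well (0.0102). That of CDK1 was lost without untreated Atg7KO replicate 3 (adjusted p = 0.0110) and without treated replicate 1 (0.0313), 2 (0.0310) or 3 (0.0290). Both were called without untreated Atg7KO replicate 1, with log2 fold changes of -1.29 and -0.68.

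In the checkpoint group, BUB1 fell from 29.6, 30.8 and 32.3 FPKM to 4.28, 4.40 and 4.32, a log2 fold change of -2.84 (SE 0.0905, adjusted p = 5.88e-06). CDC20 fell from 119.6, 106 and 105 to 15.7, 15.1 and 16.4 FPKM, 7.03-fold lower, with a log2 fold change of -2.81 (SE 0.0966, adjusted p = 6.96e-06). UBE2C went from 202, 115 and 118 to 33.4, 34.3 and 33.8 FPKM, with a log2 fold change of -2.10 (SE 0.225, adjusted p = 4.80e-04), or -1.80 without untreated replicate 1. All 3 had treated libraries below every untreated one. For PTTG1 the groups overlapped, at 135, 64.3 and 67.3 FPKM untreated and 69.7, 64.7 and 65.5 treated. Its log2 fold change was -0.42 (SE 0.277, adjusted p = 0.261), and without untreated Atg7KO replicate 1 it was 0.01, so the sign rests on that library. With the length correction it was -0.18 (adjusted p = 0.389).

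CENPF at the kinetochore moved from 21.5, 32.6 and 33.5 FPKM to 8.31, 8.45 and 9.17, a log2 fold change of -1.76 (SE 0.184, adjusted p = 4.45e-04). For AURKB the values were 48.9, 30.6 and 31.3 and 9.96, 9.89 and 10.2 FPKM, a log2 fold change of -1.89 (SE 0.191, adjusted p = 3.93e-04). The values of BIRC5 were 75.2, 51.7 and 52.05 and 12.5, 13.2 and 12.4 FPKM, a log2 fold change of -2.24 (SE 0.162, adjusted p = 9.47e-05). None of these kinetochore and passenger genes had overlapping groups. On the spindle, KIF11 went from 32.5, 33.2 and 35.4 to 12.2, 12.2 and 11.8 FPKM, a log2 fold change of -1.49 (SE 0.0865, adjusted p = 4.11e-05). HMMR, a microtubule-binding protein of the spindle, had a log2 fold change of -2.94 and DLGAP5, which stabilises spindle fibres, -2.90. ASPM went from 12.6, 20.6 and 22.8 to 3.21, 3.03 and 3.02 FPKM, a log2 fold change of -2.60 (SE 0.227, adjusted p = 2.06e-04). The values without untreated Atg7KO replicate 1 were -1.95 for CENPF, -1.64 for AURKB, -2.05 for BIRC5, -1.52 for KIF11 and -2.83 for ASPM, and all 5 were called. NUSAP1, which bundles spindle microtubules, had -0.93 (SE 0.125, adjusted p = 0.00124), and its adjusted p was 0.0109 without treated Atg7KO replicate 1 and 0.0103 without replicate 3.

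Of the cytokinesis genes, KIF20A fell from 37.6, 43.05 and 44.6 FPKM to 5.62, 5.24 and 5.64, a log2 fold change of -2.93 (SE 0.110, adjusted p = 8.69e-06). ECT2 moved from 50.6, 47.8 and 49.4 to 20.5, 21.3 and 20.7 FPKM, a log2 fold change of -1.25 (SE 0.0824, adjusted p = 6.03e-05). For both, the treated libraries lay below all untreated ones. PRC1 was not called at -0.90 (SE 0.328, adjusted p = 0.0625), and without untreated Atg7KO replicate 1 it was (-1.13, adjusted p = 5.83e-04). TOP2A went from 97.5, 119.7 and 119.9 to 31.3, 33.2 and 31.3 FPKM, a log2 fold change of -1.82 (SE 0.121, adjusted p = 6.62e-05). MKI67 had 15.7, 41.3 and 40.2 FPKM untreated and 16.2, 17.04 and 17.4 treated. Its untreated replicate 1 lay below the treated libraries and the other 2 far above them. The log2 fold change of MKI67 was -0.95 (SE 0.341, adjusted p = 0.0601). Without that replicate, with 2 untreated libraries, it was -1.28 (SE 0.0338, adjusted p = 6.46e-122). With the length correction MKI67 was also called, at -1.02 (adjusted p = 0.00732), as it was with DESeq2 (0.00929) and with all 12 libraries in the same fit (0.00744).

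The difference between the 2 responses asks whether H2O2 changed these genes by another amount in Atg7KO than in WT, and is the interaction term of an edgeR fit that held the whole set of 12 libraries. In Atg7KO 16 members fell further: edgeR called 16 of 42 lower, against 7.01% of the 16856 genes tested. It called 0 higher, against 7.02% of all genes. At an unadjusted p under 0.05, 23 members were lower and 3 higher, when 7175 of all 16856 genes passed in either direction. DESeq2, limma on FPKM plus 1 and limma on FPKM plus 0.1 called 0 members higher, against 10.2%, 7.63% and 6.46% of all genes. The median of the members was -0.37 and that of all tested genes -0.03. By role the calls were 5 of 9 for mitotic entry, 3 of 6 for the checkpoint and APC/C, 3 of 8 for the kinetochore and passenger complex, 3 of 10 for the spindle, 2 of 7 for cytokinesis and no chromosome gene. With untreated Atg7KO replicate 1 left out the counts were 24 lower and 4 higher, against 16.3% and 17.8% of the 17543 genes then tested, and the 16 were among the 24. By role, in the same order, 7, 3, 5, 4, 4 and 1 were then lower, and the median of the members was -0.33. The 4 higher ones were MKI67, CENPF, KIF20B and CENPE, named after their values were seen. Without untreated Atg7KO replicate 3, 1 member was called higher, CENPE, against 7.94% of all genes.

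PLK1 had the lowest value, -2.08 (SE 0.124, adjusted p = 2.05e-06), with a 95% confidence interval of -2.35 to -1.81. Next came CDC20 with -1.90 (SE 0.108, adjusted p = 2.05e-06), CCNB1 with -1.80 (SE 0.178, adjusted p = 4.85e-05) and UBE2C with -1.76 (SE 0.245, adjusted p = 4.01e-04). PLK1 and cyclin B1 act from mitotic entry on, and CDC20 and UBE2C in the APC/C that ends metaphase. Their values without untreated Atg7KO replicate 1 were -2.12, -1.84, -1.60 and -1.44. The passenger subunit BIRC5 had -1.47 (SE 0.170, adjusted p = 1.31e-04) and the kinase AURKA -1.38 (SE 0.167, adjusted p = 1.66e-04), and without that library -1.27 and -1.22. Among the other members called were HMMR (-1.44), CCNB2 (-1.29), DLGAP5 (-1.28), KIF20A (-1.25), BUB1 (-1.02) and KIF2C (-0.79), a motor that takes microtubules apart at their ends.

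The remaining 4 calls of a difference, AURKB, CENPA, KIF23 and CCNA2, were closer to the threshold. AURKB had -1.001 (SE 0.216, adjusted p = 0.00511) and CENPA, the histone that marks centromeres, -0.99 (SE 0.215, adjusted p = 0.00537). KIF23, a motor of the central spindle, had -0.55 (SE 0.110, adjusted p = 0.00346) and CCNA2, cyclin A2, -0.50 (SE 0.115, adjusted p = 0.00690). The call of AURKB was lost (adjusted p from 0.0141 to 0.0159) without any of untreated WT replicates 1 to 3, treated WT replicates 1 and 3 and treated Atg7KO replicates 1 to 3. Leaving out each of these same libraries ended the calls of CENPA (0.0102 to 0.0191) and CCNA2 (0.0168 to 0.0245). KIF23 was lost without untreated WT replicate 2 or 3, treated WT replicate 1 or 3, or treated Atg7KO replicate 1 or 3 (0.0117 to 0.0148). All 4 were called without untreated Atg7KO replicate 1, at -0.74, -0.84, -0.52 and -0.45. With the correction for gene length, CENPA (-0.63, adjusted p = 0.0138) and CCNA2 (-0.28, 0.0534) were not called, and AURKB was called at -0.66 (0.00207). With limma on FPKM plus 1 the call of AURKB was lost by a narrow margin (adjusted p = 0.010007), and with no filter on low counts that of CCNA2 (0.0117).

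At the other end stood MKI67, CENPE, CENPF and KIF20B, the last a motor of cytokinesis. MKI67 had the highest value of the members, 0.74 (SE 0.359, adjusted p = 0.134), followed by CENPE with 0.56 (SE 0.169, adjusted p = 0.0266), CENPF with 0.51 (SE 0.195, adjusted p = 0.0667) and KIF20B with 0.47 (SE 0.140, adjusted p = 0.0245). None of them was called. Without untreated Atg7KO replicate 1 all 4 were called higher, at 0.42 (adjusted p = 3.90e-08), 0.43 (7.88e-05), 0.33 (2.05e-05) and 0.38 (7.19e-05), and CENPE was also called without replicate 3 (0.68, adjusted p = 0.00701). With no filter on low counts MKI67 (adjusted p = 6.70e-07), CENPE (0.00309) and CENPF (0.00192) were called and KIF20B (0.0111) was not. With the correction for gene length none was called and the values were smaller, at 0.36 (adjusted p = 0.268), 0.25 (0.132), 0.12 (0.439) and 0.30 (0.0617). Their lengths are 12807, 9444, 11690 and 6851 bases.

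The difference between the responses moved with gene length among the members. Its median was -0.85 for the shortest 14 members (1286 to 3605 bases), -0.34 for the middle 14 (3646 to 4760 bases) and -0.03 for the longest 14 (4860 to 12807 bases). All tested genes in the same ranges had medians of -0.31, -0.09 and 0.15. The members called lower numbered 8, 6 and 2 in these classes. The share of all genes called lower is not given by length range. The counts by class, here and below, therefore do not show a trend particular to the members. The medians of the members without untreated Atg7KO replicate 1 were -0.62, -0.25 and -0.09, those of all genes -0.18, -0.04 and 0.11, and 12, 6 and 6 members were called lower. With the correction for gene length, in which each library's trend of deviation on gene length was removed, 15 members were called lower and no member higher, against 9.09% and 6.45% of all genes, and PLK1 had -2.11. In WT the medians of the classes ran from -1.18 through -1.54 to -1.68, while all genes had 0.15, -0.00 and -0.12. In Atg7KO they were -1.95, -2.19 and -1.79, against -0.15, -0.04 and 0.04 for all genes, and without untreated Atg7KO replicate 1 they were -1.72, -2.07 and -1.88, against -0.04, 0.0047 and 0.0077. Treated Atg7KO against treated WT, which does not use the untreated libraries, had medians of -0.76, -0.46 and -0.15 for the members and -0.15, -0.05 and 0.09 for all genes, with 13, 9 and 7 members called lower. What caused the trend with length was not tested.

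**Figure D3:**
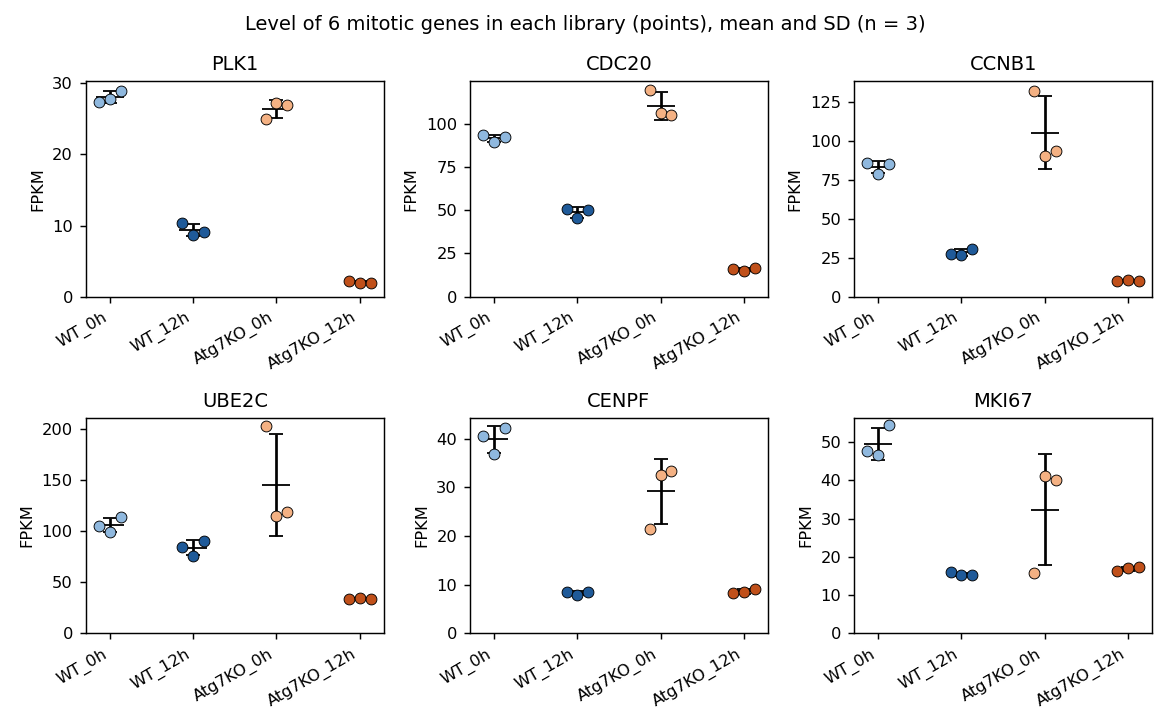
FPKM of PLK1, CDC20, CCNB1, UBE2C, CENPF and MKI67 in every library (points) of the 4 groups, with the mean and SD of 3 libraries (bars). Treated Atg7KO libraries lie below treated WT for PLK1, CDC20, CCNB1 and UBE2C, while CENPF and MKI67 differ little between the treated groups, and untreated Atg7KO replicate 1 stands apart for UBE2C, CCNB1, CENPF and MKI67.

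Promoter sequences are shown for 7 members, so that the CHR elements and CCAAT boxes known from G2 and M phase control can be seen in 6 members that fell further in Atg7KO and in MKI67, which did not. The windows come from RefSeq (GRCh38.p14), with 250 bases before and 50 after each start. Of the 42 members 36 matched, with 46 windows, and UBE2C, AURKA, BIRC5, TTK, TPX2 and FOXM1 are named only. The 120 bases before the start are printed 5′ to 3′ on the strand of the gene, and capitals mark CCAAT or its reverse complement ATTGG and the CHR letters TTTGAA.
PLK1, chr16:23678769-23678888, plus strand: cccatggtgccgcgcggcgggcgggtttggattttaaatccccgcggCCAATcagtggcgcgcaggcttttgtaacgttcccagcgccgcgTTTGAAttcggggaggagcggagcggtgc
CCNB1, chr5:69167030-69167149, plus strand: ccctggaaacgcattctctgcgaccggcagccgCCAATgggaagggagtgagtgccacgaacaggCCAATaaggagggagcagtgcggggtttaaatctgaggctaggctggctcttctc
CCNB2, chr15:59105026-59105145, plus strand: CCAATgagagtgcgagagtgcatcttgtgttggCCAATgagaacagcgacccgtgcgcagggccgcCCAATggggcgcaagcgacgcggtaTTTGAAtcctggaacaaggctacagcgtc
CDC20, chr1:43358861-43358980, plus strand: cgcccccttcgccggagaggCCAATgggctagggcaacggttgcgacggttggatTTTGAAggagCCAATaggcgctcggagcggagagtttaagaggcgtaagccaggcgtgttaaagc
HMMR, chr5:163460512-163460631, plus strand: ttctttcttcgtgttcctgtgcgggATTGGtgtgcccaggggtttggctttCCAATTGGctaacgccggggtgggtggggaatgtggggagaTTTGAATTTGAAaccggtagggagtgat
KIF20A, chr5:138178992-138179111, plus strand: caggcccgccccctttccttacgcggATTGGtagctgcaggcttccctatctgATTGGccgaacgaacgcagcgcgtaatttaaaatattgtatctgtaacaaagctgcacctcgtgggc
MKI67, chr10:128126424-128126543, minus strand: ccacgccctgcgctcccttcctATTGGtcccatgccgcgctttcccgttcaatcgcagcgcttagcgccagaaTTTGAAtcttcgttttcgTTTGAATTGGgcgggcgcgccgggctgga

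All 7 windows printed hold CCAAT on either strand, and those of PLK1, CCNB2, CDC20, HMMR and MKI67 hold TTTGAA. In those of CCNB1 and KIF20A these 6 letters do not occur. In HMMR and MKI67 some capitals of neighbouring elements adjoin or overlap. Over all promoter windows, with both strands searched, TTTGAA was in 15.2% of 35116 and in 28 of 46 member windows (60.9%). TTCGAA was in 1.45% of all windows and in 4 member windows, and CCAAT in 34.6% of all and in 34 member windows (73.9%). CCAAT together with TTTGAA or TTCGAA was in 6.38% of all windows and in 26 of those of the members. Counted by gene, TTTGAA or TTCGAA was found in 28 of the 36 matched members and CCAAT in 29. Of the 13 matched members whose response differed between genotypes, 8 had TTTGAA or TTCGAA and 12 had CCAAT. Of the 23 others, 20 had TTTGAA or TTCGAA and 17 had CCAAT. These are matches of letters and do not show a bound site. Other forms of the CHR element were not searched, so the counts do not show which members lack one.

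Untreated Atg7KO against untreated WT asks whether the genotypes differed in these genes before H2O2. The share called was near that of all genes: edgeR called 1 of 42 lower, ECT2, against 3.28% of the 15357 genes tested, and 0 higher, against 4.42% of all genes. At an unadjusted p under 0.05, 6 members were lower and 3 higher, when 5048 of all 15357 genes passed in either direction. DESeq2 called 2 members lower, against 6.07% of all genes. With limma on FPKM plus 1 and plus 0.1 the count was 1, against 2.87% and 2.74%. In these 3 settings 0 members were higher, against 7.07%, 3.85% and 3.97% of all genes. The median of the members was -0.07 and that of all tested genes 0.01. ECT2 did not reach the fold threshold of the study, so by edgeR 0 members were lower under its rule, against 1.23% of all genes. The count depends on single libraries. Without untreated Atg7KO replicate 1 it was 14 lower and 6 higher, against 17.9% and 18.2% of the 15848 genes then tested, and the median of the members was -0.11. Without any other untreated library, of either genotype, it was 0, when 0.680% to 1.26% of all genes were called lower and 1.14% to 2.13% higher.

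ECT2 had 83.4, 74.6 and 79.8 FPKM in untreated WT and 50.6, 47.8 and 49.4 in untreated Atg7KO, a log2 fold change of -0.69 (SE 0.0940, adjusted p = 0.00333). Every Atg7KO library was below every WT library. Without untreated Atg7KO replicate 1 its value was -0.70 (adjusted p = 2.07e-38). The adjusted p was 0.0309, 0.0227 and 0.0316 without untreated WT replicate 1, 2 and 3, and 0.0180 and 0.0173 without untreated Atg7KO replicate 2 and 3. With the replicate block it was 0.0185. At the other end, UBE2C had the highest value at 0.45 (SE 0.217, adjusted p = 0.196), with its 3 Atg7KO libraries above those of WT and replicate 1 far above. Without that library UBE2C was called, at 0.15 (adjusted p = 0.00815), and with the length correction it was not, at 0.19 (adjusted p = 0.200). CDK1 had 0.01 (SE 0.177, adjusted p = 0.979) with all libraries and -0.21 (adjusted p = 1.06e-04) without untreated Atg7KO replicate 1. The members called lower without that library were MKI67, ANLN, CENPF, ECT2, DLGAP5, CKAP2, KIF11, CDK1, KIF20B, CENPE, CCNB2, AURKB, NUF2 and KIF18A. Those called higher were CCNB1, BIRC5, CDC20, CDC25B, UBE2C and FOXM1, named like the 14 after their values were seen. All 6 higher values were below 0.27 in log2, and the lowest after ECT2 was AURKB at -0.40.

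Treated Atg7KO against treated WT compares the genotypes under H2O2, with libraries that the comparisons above also use. Here edgeR called 29 of 42 members lower, against 27.9% of the 15909 genes tested, and 2 higher, CDC25B and MKI67, against 27.7% of all genes. The median of the members was -0.46, and that of all tested genes -0.00. Under the thresholds of the study 12 members were lower, against 4.43% of all genes. By role 6 of 9, 5 of 6, 5 of 8, 7 of 10, 5 of 7 and 1 of 2 were called lower, in the order given for WT.

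PLK1 was again the lowest. Its treated levels, 10.3, 8.64 and 9.06 FPKM in WT and 2.26, 1.98 and 1.97 in Atg7KO, did not overlap and gave a log2 fold change of -2.18 (SE 0.0884, adjusted p = 9.37e-20), 4.53-fold lower. CDC20 followed with -1.64 (SE 0.0581, adjusted p = 2.78e-21), HMMR with -1.55 (SE 0.0988, adjusted p = 7.20e-15) and CCNB1 with -1.47 (SE 0.0638, adjusted p = 4.75e-19). In all 3 every Atg7KO library was below every WT library. UBE2C had -1.32, AURKB -1.17, AURKA -1.12, BIRC5 -1.11 and BUB1 -1.09. CENPF was level, with 8.54, 7.85 and 8.55 FPKM in treated WT and 8.31, 8.45 and 9.17 in treated Atg7KO, overlapping groups and a log2 fold change of 0.05 (SE 0.0490, adjusted p = 0.410). With the correction for gene length it was called lower, at -0.17 (adjusted p = 0.00346). SGO1, the protector of centromeric cohesion, missed the threshold at -0.41 (SE 0.137, adjusted p = 0.0104) and passed it with upper quartile scaling (adjusted p = 0.00512), RLE scaling (0.00989) and at least 10 counts in every library (0.00684).

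The 2 members called higher changed little. CDC25B had 16.6, 14.02 and 16.2 FPKM in treated WT and 16.8, 18.3 and 18.96 in treated Atg7KO, a log2 fold change of 0.20 (SE 0.0590, adjusted p = 0.00405). MKI67 had 15.9, 15.3 and 15.1 and 16.2, 17.04 and 17.4 FPKM, a log2 fold change of 0.12 (SE 0.0390, adjusted p = 0.00805). In both the Atg7KO libraries were above those of WT, by a narrow margin. With the correction for gene length MKI67 turned to -0.12 (adjusted p = 0.00877). Without treated WT replicate 2 the adjusted p of CDC25B was 0.0514 and that of MKI67 0.0290. Without treated Atg7KO replicate 2 they were 0.0124 and 0.0199, and without replicate 3 0.0302 and 0.0413, so that neither was called in these 3 settings. Without treated WT replicate 3 MKI67 alone was lost (0.0129). Both also missed the threshold with upper quartile scaling (0.0206 and 0.0786), all 12 libraries in the same fit (0.0614 and 0.716) and limma on FPKM plus 1 (0.0309 and 0.0326), and MKI67 with the replicate block (0.0154) and with at least 10 counts in every library (0.0300).

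Some lower calls of treated Atg7KO against treated WT were also small. NDC80, which binds kinetochores to microtubules, had -0.27 (SE 0.0710, adjusted p = 0.00179). Its adjusted p was 0.0103 to 0.0166 without treated WT replicate 1 or 3 or without any treated Atg7KO replicate. TOP2A had -0.16 (SE 0.0495, adjusted p = 0.00709), and without treated WT replicate 1 or 3 or any treated Atg7KO replicate its adjusted p was 0.0102 to 0.0555. CKAP2, a microtubule-binding protein, had -0.19 (SE 0.0481, adjusted p = 9.86e-04) and an adjusted p of 0.0206 without treated Atg7KO replicate 1. PTTG1 had -0.24 (SE 0.0429, adjusted p = 1.51e-05), and with the correction for gene length -0.08 (adjusted p = 0.112). With all 12 libraries in the same fit NDC80 (adjusted p = 0.182), TOP2A (0.215), CKAP2 (0.0508), PTTG1 (0.398), KIF11 (0.0199), KIF4A (0.0217) and KIF14 (0.0121) were not called, and with DESeq2 and with limma on FPKM NDC80, TOP2A and CKAP2 were not (0.0111 to 0.0658).

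Other genes of mitosis outside the 42 mostly fell with H2O2. Beside the counts below stand 30.1% of all tested genes lower and 30.9% higher in WT, 12.4% and 13.6% in Atg7KO, and 7.01% and 7.02% in the difference of the responses. Of 30 other spindle, centrosome and cytokinesis genes 28 were called lower and 1 higher in WT, with CIT, a kinase of the cleavage furrow, at -2.07. In Atg7KO 25 of them were lower, the highest log2 fold change was -0.17, and PSRC1 had -3.51 and NEK2, a centrosomal kinase, -2.79. Of 38 other kinetochore, centromere and passenger genes 27 were lower and 3 higher in WT, with SGO2 at -1.84, and 20 were lower in Atg7KO, with SPC24 at -2.21. Cohesin and condensin genes had 16 of 21 lower and 3 higher in WT, and 8 lower and 1 higher in Atg7KO. APC/C subunits and regulators had 9 of 17 lower and 2 higher in WT, and 5 lower in Atg7KO. The response differed between genotypes for 9 lower and 1 higher spindle genes, with PSRC1 at -1.96 (SE 0.270, adjusted p = 3.83e-04). It differed for 3 lower and 2 higher of the 38 kinetochore genes (7.89% and 5.26%, near the shares of all genes), for 1 lower and 4 higher cohesin and condensin genes, and for 1 APC/C gene, UBE2S (-1.35), which extends the ubiquitin chains begun by UBE2C. Without untreated Atg7KO replicate 1, against 16.3% and 17.8% of all genes, the difference was called for 19 lower and 4 higher spindle genes, 7 and 6 kinetochore genes, 2 and 9 cohesin and condensin genes and 4 and 5 APC/C genes, and in Atg7KO 30, 28, 13 and 12 of these lists were lower, against 28.6%. Between untreated genotypes these 4 lists had at most 1 gene called in either direction, against 3.28% of all genes lower and 4.42% higher. Without untreated Atg7KO replicate 1 they had 11, 9, 5 and 3 lower and 3, 4, 1 and 3 higher, against 17.9% and 18.2% of all genes. The order is spindle, kinetochore, cohesin and condensin, and APC/C genes. In treated Atg7KO against treated WT 27.9% of all genes were lower and 27.7% higher. There 22 of the 30 spindle genes were lower and 2 higher, and 15 of the 38 kinetochore genes lower and 7 higher. Of the 21 cohesin and condensin genes 6 were lower and 9 higher, and of the 17 APC/C genes 8 were lower and 6 higher.

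Genes of neighbouring steps of the cell cycle had calls in both directions after H2O2, in WT and in Atg7KO. Of 32 genes of DNA replication and the step from G1 to S phase, 8 were lower (25.00%, against 30.1% of all genes) and 14 higher (43.8%, against 30.9%) in WT, with PCNA, the sliding clamp of replication, at 1.64, and 2 were lower (6.25%, against 12.4%) and 7 higher (21.9%, against 13.6%) in Atg7KO, with CCND1 at 1.57. The members as a group fell while the median of these 32 was 0.12 in WT and 0.16 in Atg7KO. Of 17 tested G2/M checkpoint and entry regulators 9 were lower (52.9%) and 5 higher (29.4%) in WT, among them BORA, a cofactor of AURKA in activating PLK1, at -1.78 and GADD45A at 3.81. In Atg7KO 6 were lower (35.3%) and 3 higher (17.6%), with CCNG2 at -2.20 and SFN at 3.65. The response differed for GADD45A (-1.39) and CCNF (0.85), among 4 lower (23.5%, against 7.01% of all genes) and 1 higher in that list, and 2 were lower (6.25%) and 0 higher in the replication list. The last list has 20 genes, made up of DREAM, MuvB, E2F and retinoblastoma family factors and of CDKN1A, an inhibitor that is none of these. Of the 20, 7 were lower and 9 higher in WT, against 30.1% and 30.9% of all genes, and 5 and 5 in Atg7KO, against 12.4% and 13.6%, with CDKN1A among the higher ones in both, and 0 were lower and 3 higher in the difference, without CDKN1A. With untreated Atg7KO replicate 1 left out, all genes had 28.6% lower and 29.8% higher in Atg7KO and 16.3% and 17.8% in the difference, and the replication list had 10 lower and 15 higher in Atg7KO and 6 and 7 in the difference, the G2/M list 9 and 6, and 8 and 3, and the list with CDKN1A 7 and 8, and 4 and 5.

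CDKN1A, the p21 inhibitor of cyclin-dependent kinases, rose in both genotypes. It went from 50.3, 49.9 and 48.3 to 1521, 1676 and 1453 FPKM in WT, a log2 fold change of 4.96 (SE 0.0492, adjusted p = 1.46e-49), and from 51.1, 46.3 and 46.1 to 1713, 1694 and 1662 in Atg7KO, a log2 fold change of 5.14 (SE 0.120, adjusted p = 2.58e-06). Its libraries did not overlap between untreated and treated cells. Between genotypes it had 0.12 (SE 0.0367, adjusted p = 0.00824) with H2O2 and -0.05 (SE 0.0890, adjusted p = 0.717) untreated, and its response differed by 0.17 (SE 0.111, adjusted p = 0.247). PLK1, CDC20 and CCNB1 fell where CDKN1A rose, and whether the inhibitor had a part in this was not tested.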

How the data were processed

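The deposited counts are whole reads on each of 58735 genes, made by the authors from alignments to GRCh38 with HISAT2 2.0.5 and featureCounts 1.5.0-p3. FPKM, as the authors computed it, scales those counts by gene length and by a factor for each library that is not its total count alone. Libraries held 15602183 to 17659496 reads, and precision is limited by 3 replicates a group and, for low genes such as PRC1, by the count. Counts were fitted with edgeR 4.0.16 in R 4.3.3 (filterByExpr with minimum count 10, TMM scaling, robust quasi-likelihood test, Benjamini-Hochberg over all genes tested, called at adjusted p under 0.01). A comparison of 2 groups was fitted on the 6 libraries of those groups, and the difference of the responses on all 12.

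Alternatives were DESeq2 1.42.0, limma 3.58.1 on log2 FPKM plus 1 or 0.1, RLE and upper quartile scaling, no filter or at least 10 counts in every library, all 12 libraries in the same fit, the replicate number as a block, a lowess correction for gene length (span 0.3, on genes with a mean count of 20 or more), that correction with the block, an adjusted p under 0.05, and leaving out each library. Tables and figures used Python 3.11.15, pandas 2.3.3, numpy 2.4.6 and matplotlib 3.10.9. Exon overlap was counted in GENCODE release 29, where all 42 members have the bounds of the deposited table.

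The members and lists were chosen with earlier results of these data known. Library values are printed for 15 members taken to cover the roles and for the lowest and highest member of each comparison. Of each other list, up to 2 called genes with the lowest and up to 2 with the highest log2 fold change per comparison may be named.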

Additional observations from a re-analysis of the deposited data

Results flagged for a closer look

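The test of the difference between the H2O2 responses of Atg7KO and WT singled out 16 of 42 mitotic genes, each with a larger fall in Atg7KO. Of all genes, 7.01% were called lower in this test. The log2 differences were -2.08 for PLK1, -1.90 for CDC20, -1.80 for CCNB1, -1.76 for UBE2C, -1.47 for BIRC5 and -1.44 for HMMR. They were -1.38 for AURKA, -1.29 for CCNB2, -1.28 for DLGAP5, -1.25 for KIF20A and -1.02 for BUB1. The smaller ones were -1.001 for AURKB, -0.99 for CENPA, -0.79 for KIF2C, -0.55 for KIF23 and -0.50 for CCNA2. All 16 were called when any of the untreated Atg7KO libraries or treated WT replicate 2 was left out. The share of all genes called lower was then 8.03% to 16.3% and 4.34%, in that order. Without any of the other 8 libraries 12 or 13 of the 16 were called, against 4.10% to 4.85% of all genes. The calls of AURKB, CENPA and CCNA2, and without 6 of the 8 also that of KIF23, were lost there. With the correction for gene length 14 of the 16 were called, without CENPA and CCNA2, when 9.09% of all genes were called lower.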

How the results depend on the processing

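Of the 128 called values of members over all comparisons, 1 changed sign under any alternative, MKI67 with H2O2, and of the 82 values not called 27 did. Values not called that the text prints were chosen after this was seen. Over all alternatives the members called lower were 39 to 41 in WT and 36 to 41 in Atg7KO. They were 22 to 33 for the genotypes with H2O2 and 12 to 24 for the difference of the responses. The share of all genes called lower was 14.8% to 31.6% in WT and 4.52% to 28.6% in Atg7KO. It was 12.96% to 30.3% for the genotypes with H2O2 and 4.10% to 16.3% for the difference. These shares leave out adjusted p under 0.05, for which none is given. The 41 in Atg7KO and the 24 were found without untreated Atg7KO replicate 1, where these 2 shares were highest.

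In WT, 1 member was called higher with at least 10 counts in every library, against 31.3% of all genes, and 1 at adjusted p under 0.05. PTTG1 turned to -0.051 with the length correction and to -0.052 with the replicate block and length correction. In Atg7KO the median was -1.94 with upper quartile scaling, -1.75 with limma on FPKM plus 1 and -1.84 with FPKM plus 0.1, and -1.89 to -1.82 with a library left out. Leaving out a library gave PTTG1 there values from -0.61 to 0.0056.

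Untreated, the members called lower in Atg7KO were 2 with DESeq2, 3 with all 12 libraries in the same fit, 0 with the replicate block by edgeR (1 at main settings) and 3 at adjusted p under 0.05. Of all genes 6.07% were called lower with DESeq2, 8.83% with all 12 libraries, 1.21% with the block and 3.28% at main settings. With a library left out the members called lower were 0 to 14, against 0.680% to 17.9% of all genes. Those called higher were 0 to 6, against 1.14% to 18.2%. CDK1 turned to -0.018 with the replicate block, -0.039 with the length correction, -0.055 with both, and -0.015 and -0.016 with limma on FPKM plus 1 and plus 0.1, and ranged from -0.21 to 0.13 with a library left out.

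With H2O2, the members called higher in Atg7KO were 0 with upper quartile scaling, all 12 libraries and limma at either offset, and 1 with at least 10 counts, with the replicate block, with the length correction and with both. Of all genes 14.0% were called higher with all 12 libraries and 24.3% to 28.5% in the others of these settings. With a library left out they were 0 to 2, against 23.99% to 26.86% of all genes, and the median of the members was -0.60 to -0.40. With the length correction, without and with the replicate block, CENPF turned to -0.17 and -0.17 and MKI67 to -0.12 and -0.12. For the difference of the responses, the members called higher were 3 without a filter, 2 at adjusted p under 0.05, and 0 to 4 with a library left out. Of all genes 5.46% were called higher without a filter and 3.59% to 17.8% with a library left out. The cause of these changes was not tested.

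Replicates with the same number correlated between groups at -0.04 to 0.09, so the replicate block pairs libraries that the data do not link. Without a filter the median of all genes moved to 0.20 in WT and to -0.12 with H2O2, and DESeq2 moved it to 0.24 and -0.13, both over more genes tested. At this depth PRC1, under 1 FPKM, is limited by its count.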
